A study of Homo sapiens with 6 samples.

Results

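The mRNA of 10 genes that encode interferons and interferon receptor chains was examined in BxPC-3 cells, an established human pancreatic ductal adenocarcinoma line, after transfection of the microRNA miR-4711-5p. The genes were chosen by name and role from 26255 gene symbols. The 4 ligands were IFNB1, IFNL1, IFNL2 and IFNE, and the 6 receptor chains were IFNAR1, IFNAR2, IFNGR1, IFNGR2, IFNLR1 and IL10RB. The study sequenced polyadenylated RNA in 6 libraries, 2 in each of 3 groups, all labelled 36 h. Parent cells received no treatment, NC-1 cells received a negative control RNA, and the third group received miR-4711-5p, so both latter groups had been transfected and Parent had not. All libraries came from the same line, which carries no transgene, and no source used here says whether the 2 libraries of a group came from separate cultures. The p-values therefore measure the spread between libraries, which may be technical.

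Interferons are secreted proteins that cells release when they sense foreign or displaced nucleic acid. Type I interferons, such as IFN-beta from IFNB1 and IFN-epsilon from IFNE, bind a receptor made of IFNAR1 and IFNAR2. Type III interferons, such as IFN-lambda 1 and 2 from IFNL1 and IFNL2, bind a receptor made of IFNLR1 and IL10RB and act mainly on epithelial cells. Type II interferon, IFN-gamma, binds a receptor made of IFNGR1 and IFNGR2. The chains have no enzyme activity of their own and pass the signal through Janus kinases to STAT proteins, which switch on interferon-stimulated genes.

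The sequences of the microRNA and of its matches in the members are shown because they mark where its seed matches the 3′ UTRs of the 10 genes. The mature strand is given from RefSeq (GRCh38.p14, chr1:59733269-59733291, minus strand), with the seed, bases 2 to 8, in capitals. A 7mer-m8 match to the seed reads CTGATGC in the mRNA, and the 8mer match CTGATGCA has an added A. Of the 10 members, IFNAR1 had 2 matches (7mer-m8) and IFNLR1 had 2 (a 7mer-m8 and an 8mer) in the canonical 3′ UTR of GENCODE v44 lifted to GRCh37. IFNAR2 had 1 match, in the 3′ UTR of 2 of its 8 coding transcripts but not in the canonical one. The other 7 had none in the 3′ UTR of any coding transcript. Other parts of the transcripts were not searched. The matches lie in 3′ UTR exons and are in capitals within up to 30 bases of mRNA sense sequence.
hsa-miR-4711-5p: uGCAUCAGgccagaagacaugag
IFNAR1, chr21:34728524-34728530, plus strand: cctgtccatcaCTGATGCtgctggctact
IFNAR1, chr21:34731664-34731670, plus strand: agatgctgcagCTGATGCctttaaaaggt
IFNLR1, chr1:24483588-24483594, minus strand: tcccaccgaatCTGATGCtgctgctgcct
IFNLR1, chr1:24482378-24482385, minus strand: acctgggggtgCTGATGCAtcctcagttaa
IFNAR2, chr21:34635596-34635602, plus strand: tagaagcccctCTGATGCtatcgtctcat

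The matches begin at bases 669 and 3809 of the 4315 nt 3′ UTR of IFNAR1 and at bases 26 and 1235 of the 2962 nt 3′ UTR of IFNLR1. Both of these 3′ UTRs are long, and length raises the chance of a match. Among 10564 tested genes with a canonical 3′ UTR, 17.2% had a seed match of any kind and 3.21% had an 8mer, and among the 3786 with a 3′ UTR of at least 2000 nt, 32.8% had a match. A match is a feature of the sequence, and pairing was not measured.

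The promoters of IFNB1 and IFNL1 are shown because their short motifs are where the factors that switch on interferon genes bind. The sequences are from RefSeq (GRCh38.p14), on the strand of the gene, and end at the base before the annotated start. Capitals mark the core of interferon regulatory factor (IRF) elements, AANNGAAA, and, for IFNB1 only, an NF-kappaB element, GGANNTTCC, found on either strand. In IFNL1 both IRF runs in capitals are on the opposite strand, and the longer one is a pair of overlapping matches.
IFNB1, chr9:21077943-21078062, minus strand: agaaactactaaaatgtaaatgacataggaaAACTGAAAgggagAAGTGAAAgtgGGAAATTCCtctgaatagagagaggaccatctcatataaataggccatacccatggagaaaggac
IFNL1, chr19:39296157-39296406, plus strand: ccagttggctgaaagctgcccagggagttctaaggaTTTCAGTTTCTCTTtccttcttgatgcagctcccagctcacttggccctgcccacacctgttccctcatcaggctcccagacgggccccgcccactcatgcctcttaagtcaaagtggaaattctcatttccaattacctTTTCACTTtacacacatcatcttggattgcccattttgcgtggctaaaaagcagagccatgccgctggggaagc

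The IRF core lay at -89 and -76 in IFNB1, counted from the start site, with the NF-kappaB motif at -65. It lay at -214, -208 and -74 in IFNL1 and at -176 and -70 in IFNL2. Within 250 bases before the start, 20.3% of 35116 RefSeq promoters held the IRF core and 3.84% held the NF-kappaB motif. Promoters were found for 9 of the 10 members. IFNGR2 held the NF-kappaB motif at -195 and -99, and neither motif was in this window of IFNE, IFNAR1, IFNGR1, IFNLR1 or IL10RB.

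The values are FPKM, the fragments assigned to a gene corrected for exon length and for the size of the library, as deposited, which allows levels to be compared between genes. The test was limma on log2(FPKM + 1), for the 12040 genes whose mean reached 1 FPKM, and a gene was called at a Benjamini-Hochberg adjusted p below 0.05. A fold change on this scale understates the change of a gene at low FPKM. Depth in reads is not given, but the steps between low values put the relative depth of the libraries between 0.751 (NC-1 1) and 1.21 (miR-4711-5p 2), with Parent 1 at 1. FPKM summed to between 493145 and 550772 in a library, and 16597 to 17305 symbols were above 0. The 8 ductal epithelial markers were all above the filter (KRT7, a keratin of ductal cells, at 1562 to 1842 FPKM). They summed to 6649 and 6309 FPKM in Parent, 5942 and 5706 in NC-1, and 5472 and 5442 with miR-4711-5p. With miR-4711-5p, 4 were called lower and 1 higher against Parent, and 5 lower and 3 higher against NC-1. Of all genes, 24.7% were lower and 18.7% higher against Parent, and 21.2% and 18.4% against NC-1. Of 11 markers of blood and dendritic cells, the latter a main source of interferon in the body, 1 was above it (CD68, a lysosomal protein, at 11.3 to 15.3 FPKM) and 3 were listed at 0 throughout, with a summed level of 14.7 and 15.6 FPKM in Parent, 14.6 and 16.3 in NC-1, and 14.3 and 12.2 with miR-4711-5p. The 5 fibroblast markers summed to between 1.29 and 2.42 FPKM.

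IFNB1 was detected in both miR-4711-5p libraries and in no other. These were also the deepest libraries by the steps between low values, at 1.08 and 1.21 relative to Parent 1. Parent 2 was at 0.873 and NC-1 at 0.751 and 0.857, so detection and depth cannot be told apart by group. It encodes IFN-beta, the type I interferon that epithelial cells typically make first, and lies on chromosome 9 at 21077103-21077941 (GRCh37, minus strand). Its level was 0.613 FPKM in miR-4711-5p 1 and 0.234 FPKM in miR-4711-5p 2, and it was listed at 0 in both Parent and both NC-1 libraries. The values lay on whole steps (within 0.03 of a step) that correspond to 7 and 3 reads. Counting error alone puts these at 2.81 to 14.4 and 0.619 to 8.77 reads (exact Poisson 95% intervals). A count of 0 has an exact Poisson interval that reaches 3.69 reads. In the 4 control libraries even 3 reads, the floor used here, would have been 0.283 to 0.376 FPKM, which is above the value of miR-4711-5p 2. The difference thus rests on 10 reads in all, which bulk RNA cannot assign to many cells with little IFNB1 mRNA or a few with more, and no fold is given against groups listed at 0. A gene listed at 0 in these files need not be unexpressed, since an exact 0 can also be a failed estimate.

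IFNL1 was detected in 5 of the 6 libraries. Both miR-4711-5p values lay above both NC-1 values, and Parent overlapped each of the other groups. It encodes IFN-lambda 1 and lies on chromosome 19 at 39787047-39789313 (GRCh37, plus strand). Its level was 0.0919 and 0.421 FPKM in the Parent libraries, 0 and 0.214 FPKM in the NC-1 libraries, and 0.342 and 0.609 FPKM in the miR-4711-5p libraries. In steps, these were 1, 4, 0, 2, 4 and 8 reads, or 5 reads in Parent, 2 in NC-1 and 12 with miR-4711-5p. These totals are not corrected for depth, which was greatest with miR-4711-5p and least in NC-1. The highest library was miR-4711-5p 2, at 8 reads (exact Poisson 95% interval 3.45 to 15.8), and the other miR-4711-5p library had as many reads as Parent 2, with 4 (1.09 to 10.2). The counting intervals of every miR-4711-5p library overlapped those of every Parent and NC-1 library. Such an overlap of single libraries is not a test between groups, and no conclusion on a group difference is drawn from it.

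IFNL2, for IFN-lambda 2 (chromosome 19, 39759036-39760828, plus strand), was at 0.210 FPKM in miR-4711-5p 1 and listed at 0 in the other 5 libraries. IFNL3, its near-identical neighbour gene, showed the same pattern, at 0.569 FPKM in miR-4711-5p 1 and 0 elsewhere, and reads of the pair can be shared, so neither value can be assigned to 1 of them. IFNE (chromosome 9, 21480838-21482312, minus strand), whose product IFN-epsilon is known from the female reproductive tract, was listed at 0 in all 6 libraries. Of 18 other interferon genes, the other 17 besides IFNL3 were also listed at 0 in all libraries: 13 IFNA genes, IFNW1, IFNK, IFNG and IFNL4. Thus the interferon mRNA seen with miR-4711-5p was that of IFNB1 and of the IFN-lambda genes.

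**Figure D1:**
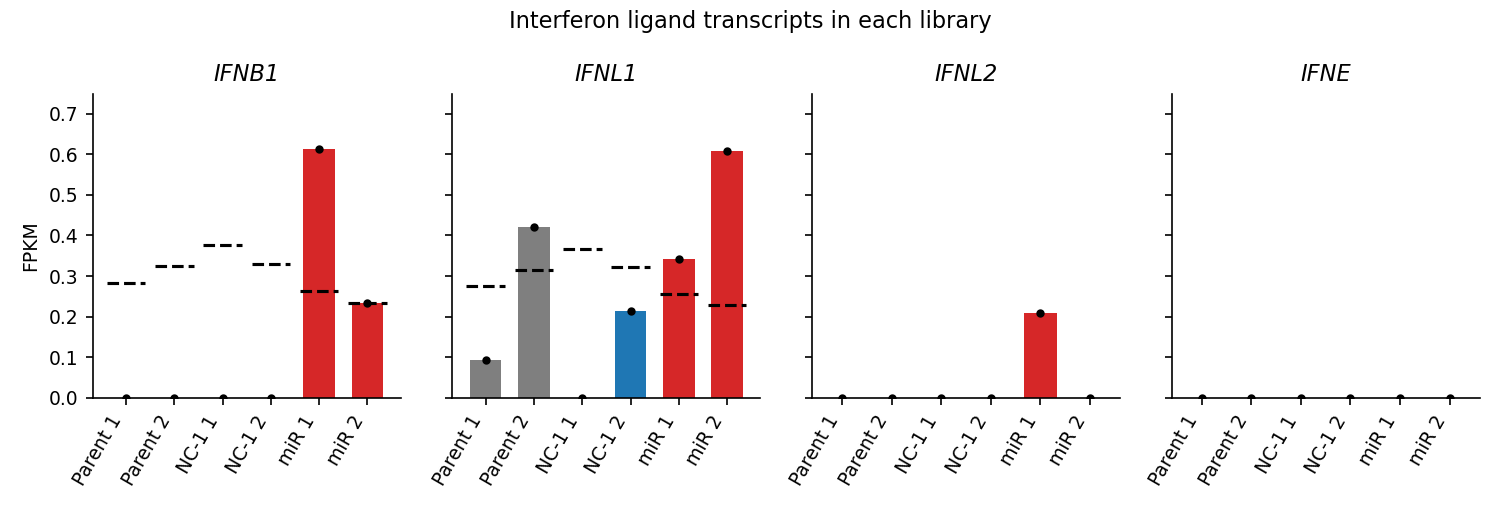
FPKM of the 4 interferon ligand genes in each of the 6 libraries (bars and points, 1 value each; miR stands for miR-4711-5p), on a shared linear axis from 0. Dashed lines mark the FPKM that 3 reads would give in each library, for the 2 genes whose reads could be recovered from the steps. IFNB1 is above 0 with miR-4711-5p only, at 0.613 and 0.234, while for IFNL1 both miR-4711-5p values lie above both NC-1 values and overlap Parent.

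With 2 libraries on each side the smallest p of an exact permutation test is 0.333, and the ligands were below the filter on low values. With a lower filter (a mean of at least 0.1 FPKM), limma gave IFNB1 a log2 difference of 0.50 with adjusted p = 0.0292 against Parent and 0.0318 against NC-1, and with no filter 0.143 and 0.15. IFNB1 passed the lower filter through its miR-4711-5p libraries alone, so this is no independent support. For IFNL1 the lower filter gave adjusted p = 0.324 against Parent and 0.11 against NC-1 (limma).

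IFNB1 and IFNE lie at the ends of the type I interferon cluster on chromosome 9p21, next to MTAP, CDKN2A and CDKN2B. Beyond IFNB1 the region was nearly silent. Between IFNB1 and DMRTA1, 23 of 24 listed symbols were at 0 in all 6 libraries, among them IFNE, the IFNA genes, KLHL9, MTAP (an enzyme of methionine salvage), CDKN2A and CDKN2B (inhibitors of cell cycle kinases) and DMRTA1. The exception was the long non-coding RNA CDKN2B-AS1, at no more than 0.0471 FPKM. On the other side of IFNB1, FOCAD was at 6.18 to 7.08 FPKM and MLLT3 at 1.15 to 1.59 FPKM, and HACD4, the nearest with any value above 0, was at most 0.231 FPKM. BxPC-3 is known to lack CDKN2A. Values of RNA do not tell an absent locus from a silent one, and whether IFNE is present in these cells was not tested.

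**Figure D2:**
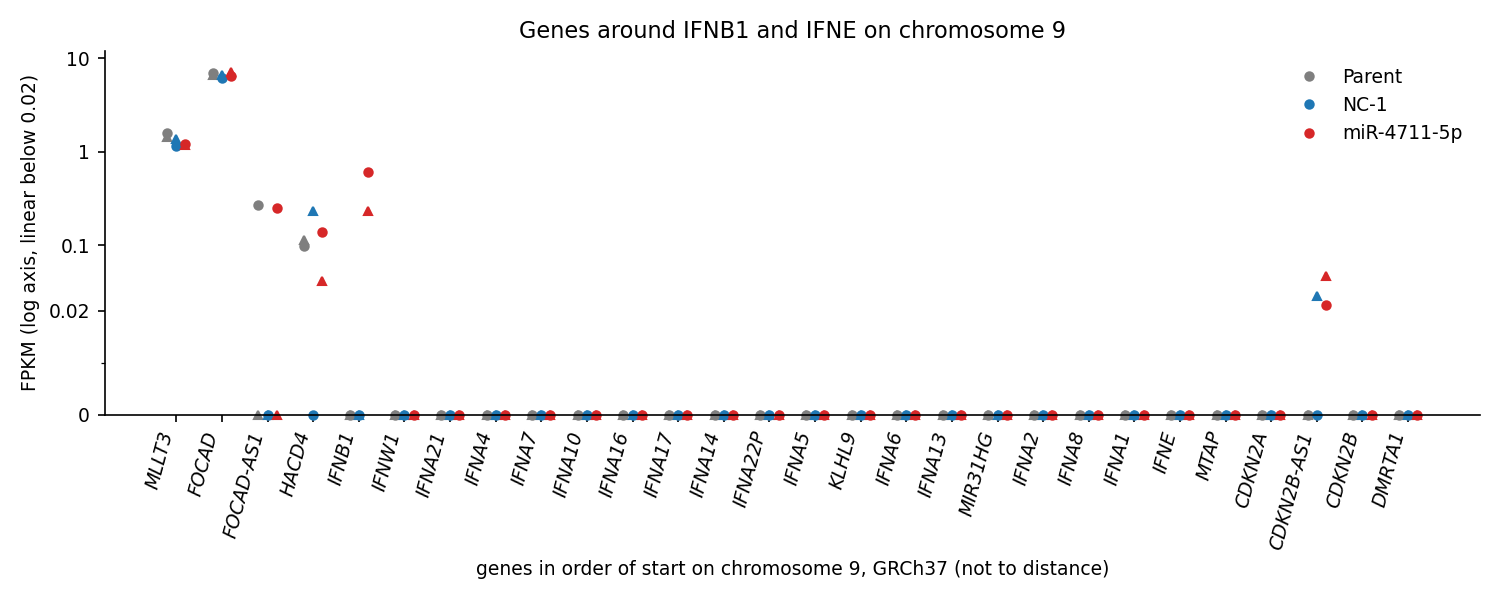
FPKM in each library (circle, replicate 1; triangle, replicate 2; colour, group) of the listed genes around IFNB1 and IFNE, in their order along chromosome 9, on a log axis that is linear below 0.02. Of 33 symbols from MLLT3 to DMRTA1, 27 were at 0 in all libraries; a few symbols at 0 are not drawn. IFNB1 is the last gene of the row, from the left, with a value above 0.05 in any library.

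All 6 receptor chains were detected in every library, and their order by level (FPKM) was the same in each: IFNGR1, IFNGR2, IFNAR2, IL10RB, IFNAR1 and IFNLR1. No neighbours in this order overlapped in any pair of libraries. IFNGR1 was at 51.2 FPKM or more and IFNLR1 at 1.21 FPKM or less. The IFN-gamma receptor chains were thus the most abundant, although IFNG itself was listed at 0, and the chain particular to IFN-lambda was the scarcest. For the 5 chains that passed the filter, the ratio of mean FPKM with miR-4711-5p lay between 0.903 and 1.20 against Parent and between 0.709 and 0.970 against NC-1. The plot of receptor levels by library shows all 6.

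**Figure D3:**
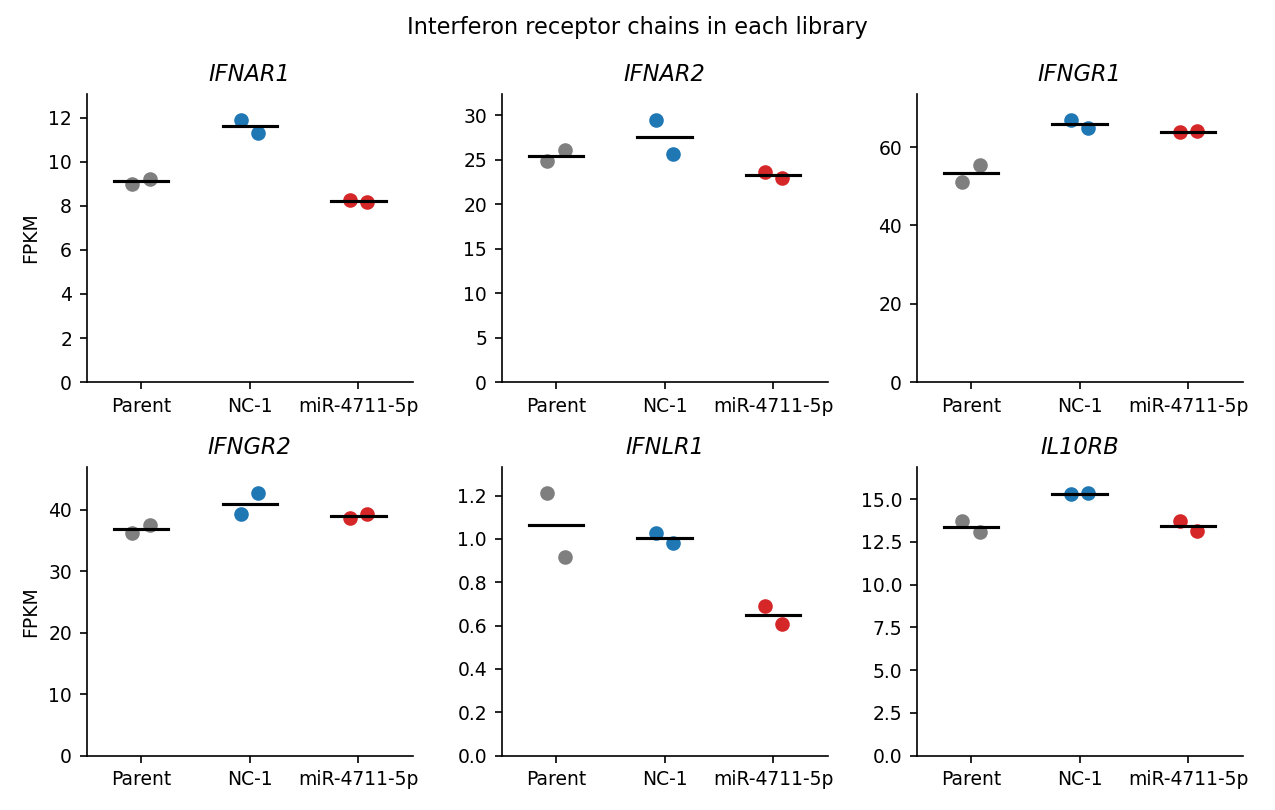
FPKM of the 6 receptor chains in each library (points) with the mean of each group of 2 (lines), on linear axes from 0 that differ between panels. IFNAR1 is highest in NC-1, at 11.9 and 11.3, and IFNLR1 is lowest with miR-4711-5p, at 0.692 and 0.605.

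IFNAR1 was lower with miR-4711-5p than with NC-1. It encodes the chain of the type I receptor that binds the kinase TYK2 and lies on chromosome 21 at 34696692-34732170 (GRCh37, plus strand). Its level was 8.99 and 9.22 FPKM in Parent, 11.9 and 11.3 FPKM in NC-1, and 8.27 and 8.18 FPKM with miR-4711-5p. The 3 groups did not overlap, with NC-1 highest and miR-4711-5p lowest. It carries the pair of 7mer-m8 matches printed above. Against NC-1 the difference was -0.45 ± 0.06 (log2, SE, n = 2 libraries per group, ratio 0.709, limma adjusted p = 0.000989). It kept its call with each of the 6 libraries left out in turn. Against Parent the difference was -0.13, with a 95% interval from -0.27 to 0.0035 (limma adjusted p = 0.104). IFNAR1 was also higher in NC-1 than in Parent, by 0.32 ± 0.06 (log2, SE, ratio 1.27, limma adjusted p = 0.00858), a call lost without Parent 1 (adjusted p = 0.0533) or without NC-1 1 (0.0563). These comparisons share libraries, so the fall against NC-1 and the rise of NC-1 over Parent are not separate evidence.

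IFNAR2, the chain that binds type I interferon with the higher affinity and carries the STAT docking region, lies at 34577587-34637980 of chromosome 21 (plus strand). Its level was 24.8 and 26.1 FPKM in Parent, 29.5 and 25.7 FPKM in NC-1, and 23.6 and 23.0 FPKM with miR-4711-5p. Each library with miR-4711-5p lay below the lowest control, and NC-1 overlapped Parent. It was lower than in NC-1 by -0.23 ± 0.07 (log2, SE, ratio 0.843, limma adjusted p = 0.0358). This call was lost without Parent 1 or Parent 2 (adjusted p = 0.0575 and 0.0573), without NC-1 1 (0.155) and without miR-4711-5p 1 or miR-4711-5p 2 (0.114 and 0.161). Against Parent the difference was -0.12, with an interval from -0.29 to 0.04 (limma adjusted p = 0.203), and for NC-1 against Parent it was 0.11, from -0.06 to 0.28 (0.284).

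IL10RB, the chain that the IFN-lambda receptor shares with the receptors for IL-10 and IL-22, lies between IFNAR2 and IFNAR1 at 34638672-34683725 (plus strand). Its level was 13.7 and 13.1 FPKM in Parent, 15.3 and 15.3 FPKM in NC-1, and 13.8 and 13.2 FPKM with miR-4711-5p. NC-1 was above the other 4 libraries, and miR-4711-5p and Parent overlapped. The differences were -0.17 ± 0.05 for miR-4711-5p against NC-1 (ratio 0.879, limma adjusted p = 0.0387) and 0.18 ± 0.05 for NC-1 against Parent (log2, SE, ratio 1.14, limma adjusted p = 0.0456). Both calls were fragile. The first was lost without NC-1 1 or NC-1 2 (adjusted p = 0.115 and 0.122) and without miR-4711-5p 1 or miR-4711-5p 2 (0.0944 and 0.191), and the second with any 1 of the 6 libraries left out (0.0796 to 0.151). With the replicate number as a block, the adjusted p-values were 0.0507 and 0.0605. Against Parent, miR-4711-5p gave 0.0074, from -0.12 to 0.14 (limma adjusted p = 0.927). An antisense gene, IL10RB-AS1, was at 2.999 FPKM or less, and whether reads were assigned by strand is not given in the sources used here.

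IFNGR1 was higher in both transfected groups than in Parent. It encodes the ligand-binding chain of the IFN-gamma receptor and lies on chromosome 6 at 137518620-137540586 (GRCh37, minus strand). Its level was 51.2 and 55.4 FPKM in Parent, 67.0 and 64.9 FPKM in NC-1, and 63.9 and 64.1 FPKM with miR-4711-5p. Parent was below the other 4 libraries, and both miR-4711-5p libraries were just below both NC-1 libraries. The rise over Parent was 0.26 ± 0.05 with miR-4711-5p (log2, SE, ratio 1.20, limma adjusted p = 0.0061) and 0.30 ± 0.05 with NC-1 (ratio 1.24, limma adjusted p = 0.00698). Both calls held with each library left out in turn and were lost with no filter on low values (adjusted p = 0.0516 and 0.0674). The difference from NC-1 with miR-4711-5p was -0.043, from -0.16 to 0.078 (limma adjusted p = 0.535).

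IFNGR2, the accessory chain that brings JAK2 to the IFN-gamma receptor, passed no threshold. It lies on chromosome 21 at 34775719-34851655 (plus strand) and overlaps TMEM50B on the opposite strand. Its level was 36.1 and 37.5 FPKM in Parent, 39.3 and 42.7 FPKM in NC-1, and 38.7 and 39.3 FPKM with miR-4711-5p. Parent was lowest, and miR-4711-5p overlapped NC-1. The differences were 0.080, from -0.048 to 0.21, for miR-4711-5p against Parent (limma adjusted p = 0.27), -0.069, from -0.20 to 0.059, against NC-1 (0.347), and 0.15, from 0.021 to 0.28, for NC-1 against Parent (0.082).

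IFNLR1, the chain that binds IFN-lambda, lies on chromosome 1 at 24480658-24514449 (GRCh37, minus strand) and carries the 8mer match printed above. Its level was 1.21 and 0.919 FPKM in Parent, 1.03 and 0.981 FPKM in NC-1, and 0.692 and 0.605 FPKM with miR-4711-5p. Each library with miR-4711-5p lay below the lowest control, with a ratio of 0.609 against Parent and 0.646 against NC-1, and NC-1 lay within the range of Parent. Its mean was below 1 FPKM, so it was outside the genes tested. With the filter lowered to 0.1 FPKM its log2 difference was -0.32 ± 0.10 against Parent (SE, limma adjusted p = 0.0493) and -0.28 ± 0.10 against NC-1 (limma adjusted p = 0.0778), and with no filter the adjusted p-values were 0.12 and 0.162. NC-1 against Parent gave -0.04, from -0.28 to 0.20 (limma adjusted p = 0.824 with the lower filter).

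In counts, limma called 1 of the 5 tested chains between miR-4711-5p and Parent, IFNGR1, which was higher. Over all 12040 genes it called 43.4%, with 18.7% higher and 24.7% lower. Between miR-4711-5p and NC-1 it called 3 of 5, all lower, beside 39.6% of all genes (18.4% higher and 21.2% lower). Between NC-1 and Parent it also called 3 of 5, all higher, beside 27.2% of all genes (12.1% higher and 15.1% lower). The median log2 difference of the 5 chains was 0.01, -0.17 and 0.18 in this order of comparisons, and that of all genes was -0.01, 0.00 and -0.01. With so few chains, and comparisons that share libraries, these shares do not set the receptor genes apart from other genes. The 4 ligands and IFNLR1 are not in these counts.

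**Figure D4:**
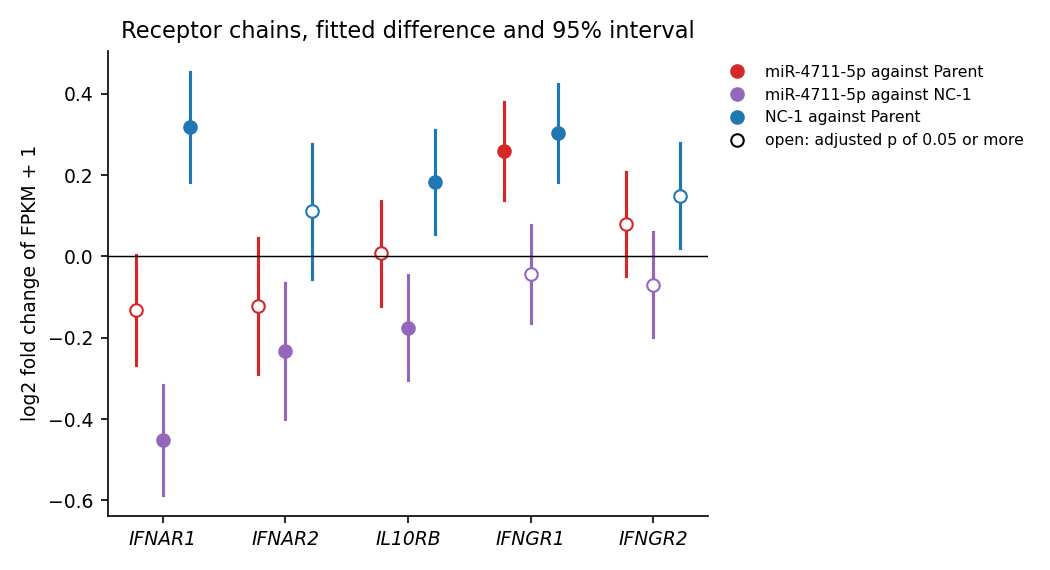
Fitted log2 difference of FPKM + 1 (points) with its 95% interval (bars) for the 5 receptor chains tested, in 3 comparisons. Filled points passed an adjusted p of 0.05. IFNAR1 is at -0.45 against NC-1, and all 5 points of NC-1 against Parent are above 0.

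IFNAR2, IL10RB, IFNAR1 and IFNGR2 stand side by side on chromosome 21 on the same strand. Of 6 tested neighbours of the cluster, 2 fell relative to Parent after miR-4711-5p, namely DONSON (ratio 0.642, limma adjusted p = 0.00437), a replication fork gene, and GART (ratio 0.87, 0.0301), a purine synthesis enzyme. Against NC-1 1 of the 6 was lower, TMEM50B, a membrane protein gene that overlaps IFNGR2 (ratio 0.823, limma adjusted p = 0.0116). DONSON and GART passed no threshold there (ratios 0.806 and 0.961, limma adjusted p = 0.0708 and 0.487). Between NC-1 and Parent none was called, with ratios of 0.797 for DONSON and 0.905 for GART. Of all genes, 24.7% were called lower against Parent and 21.2% lower against NC-1, and 27.2% were called between NC-1 and Parent. TMEM50B was at 7.91 and 7.79 FPKM in Parent, 8.91 and 8.94 FPKM in NC-1, and 7.28 and 7.41 FPKM with miR-4711-5p, the order of groups seen for IFNAR1.

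Across the 6 libraries, the genes whose log2(FPKM + 1) followed a chain most closely were TP53INP1 (r = 0.9985) and MCFD2 (0.9975) for IFNAR1, ZNF92 (0.9971) and AKAP9 (0.9966) for IFNGR1, and DENR (0.9902) and DSG2-AS1 (0.9869) for IFNAR2. For IFNGR2 they were ATXN7 (0.9899) and SCML1 (0.98), and NCK1 (0.9896) was among the closest to IL10RB. Each is among the highest of 12040 genes over only 6 points in 3 groups, so values this high are a description only.

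Among the kinases and STAT proteins next to the receptors, STAT2 and IRF9 rose with miR-4711-5p. Of 9 signal transducers, 4 rose and 2 fell relative to Parent after miR-4711-5p (median log2 difference 0.09), beside the shares of all genes given above. STAT2 and IRF9, which join in the complex that type I and III interferons activate, were 15.6 ± 0.141 and 26.3 ± 0.495 FPKM in Parent (SD, n = 2) and 36.3 ± 2.71 and 77.5 ± 3.01 FPKM with miR-4711-5p. Their ratios were 2.32 and 2.94 (limma adjusted p = 1.61e-05 and 3.95e-06), and that of JAK1, the kinase on IFNAR2, was 1.30 (limma adjusted p = 0.000479). RACK1, a scaffold known to bind IFNAR2, and PRMT5, an arginine methyltransferase known to bind JAK2, were lower, at ratios of 0.86 (limma adjusted p = 0.00842) and 0.894 (0.022). JAK2, TYK2 and STAT3 passed no threshold in this comparison. Against NC-1, 5 of the 9 were higher (STAT2, IRF9, JAK1 and PRMT5 among them) and none lower (median 0.15), and between NC-1 and Parent 4 were higher (IRF9, STAT2 and JAK1 among them) and 2 lower (PRMT5 and RACK1, median 0.20). The ratios of STAT2, IRF9 and JAK1 with miR-4711-5p against NC-1 were 1.98, 2.07 and 1.11.

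Among 14 genes that restrain interferon receptors, 4 rose over Parent after miR-4711-5p and none fell (median 0.10), and 10 passed no threshold. Of all genes tested, 18.7% were higher and 24.7% lower in this comparison. USP18, which binds IFNAR2 and blocks JAK1 there, was 2.86 ± 0.521 FPKM in Parent, 4.35 ± 0.227 in NC-1 and 26.1 ± 3.56 with miR-4711-5p (SD, n = 2), a ratio of 9.12 (limma adjusted p = 6.78e-06). ISG15, a ubiquitin-like protein that stabilises USP18, had a ratio of 4.31 (3.3e-06), and the kinase inhibitors SOCS3 and SOCS1 had ratios of 2.05 and 1.36 (limma adjusted p = 0.00288 and 0.0453). USP18 and ISG15 are themselves interferon-stimulated. Against NC-1, 7 were higher and 1 lower, PTPN11, a tyrosine phosphatase (median 0.19). Between NC-1 and Parent, USP18 was higher, CISH and PTPN2 were lower, and 11 passed no threshold (median -0.01). The shares of all genes were 18.4% higher and 21.2% lower against NC-1, and 12.1% higher and 15.1% lower between NC-1 and Parent.

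Among 17 genes that sense nucleic acid or switch on interferon genes, 16 were tested (IRF7 was below the filter). Of these, 9 rose and 1 fell relative to Parent after miR-4711-5p (median 0.25), beside 18.7% higher and 24.7% lower of all genes. The list is by role, and all libraries were labelled 36 h. Whether these genes, or STAT2 and IRF9 above, rose before or after any interferon was not tested. RIGI and IFIH1, cytosolic sensors of double-stranded RNA, were 11.8 ± 0.792 and 9.32 ± 0.0234 FPKM in Parent and 46.3 ± 3.52 and 29.1 ± 1.09 FPKM with miR-4711-5p (SD, n = 2), ratios of 3.92 and 3.12 (limma adjusted p = 4.87e-06 and 4.3e-06). Their relative DHX58 had a ratio of 2.72 (1.88e-05), and JUN, a subunit of a factor that binds the IFNB1 enhancer, had 2.08 (8.07e-05, limma adjusted p). The tested gene that was lower was STING1, the adaptor for cytosolic DNA (ratio 0.725, limma adjusted p = 0.00119). IRF7, not tested, was at 0.195 and 0.223 FPKM in Parent, 0.0951 and 0.228 in NC-1, and 0.0907 and 0.0269 with miR-4711-5p. Against NC-1, 8 were higher and 2 lower, STING1 and MAVS, the adaptor of RIGI and IFIH1 (median 0.19). Ratios there were 2.85 for RIGI, 2.81 for IFIH1, 2.37 for DHX58 and 1.83 for JUN. Between NC-1 and Parent 2 were higher, RIGI and MAVS, and none lower (median 0.12). The shares of all genes were 18.4% higher and 21.2% lower against NC-1, and 12.1% higher and 15.1% lower between NC-1 and Parent.

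The interferon-stimulated genes had larger medians than the other pathway lists in both comparisons of miR-4711-5p. The lists were chosen with earlier results of these data known, so this order is a description and no independent support. Of the 15 interferon-stimulated genes, all but IRF1 rose with miR-4711-5p, relative to Parent and also to NC-1 (median log2 difference 1.95 and 1.58). In NC-1, 10 were higher than in Parent (median 0.26). The shares of all genes called higher were 18.7%, 18.4% and 12.1% in the same order. IFI6, a mitochondrial and ER protein, was 71.4 and 59.3 FPKM in Parent, 99.8 and 94.3 in NC-1, and 753 and 640 with miR-4711-5p. MX1, an antiviral GTPase, was 6.91 and 7.09 FPKM in Parent, 8.56 and 9.17 in NC-1, and 73.5 and 65.4 with miR-4711-5p. The groups of both genes were apart in all libraries, with ratios against Parent of 10.7 and 9.93 (limma adjusted p = 3.3e-06 and 2.81e-06). IFI44L and IFIT1, which binds foreign RNA, had ratios of 8.85 and 7.82 (limma adjusted p = 2.81e-06 for each). Against NC-1 the ratios were 7.18 for IFI6, 7.83 for MX1, 4.64 for IFI44L and 7.35 for IFIT1. IRF1 was at 20.7 to 23.0 FPKM in the 6 libraries. Interferon protein and receptor signalling were not measured in these libraries, and which ligand, if any, these genes answered to was not tested.

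**Figure D5:**
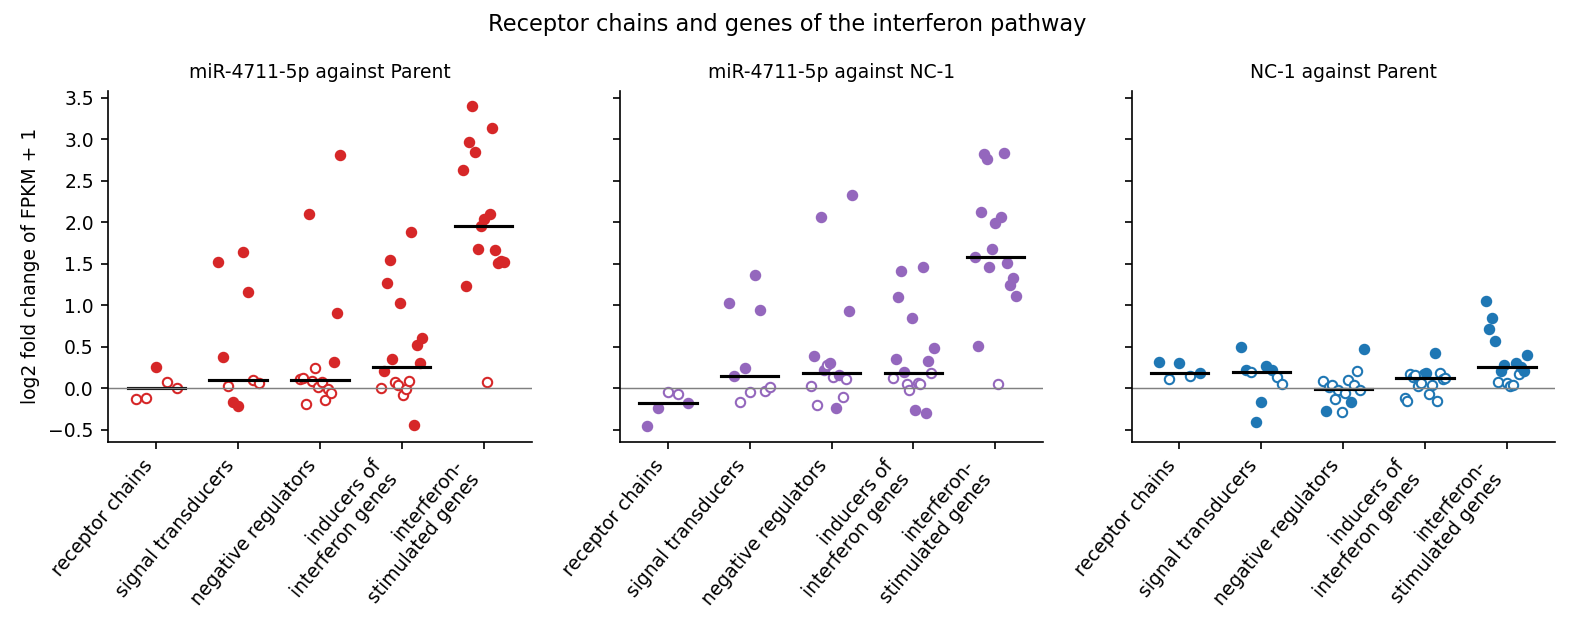
Log2 difference of FPKM + 1 of each tested gene (points) in 5 lists, with the median of the list (line), in 3 comparisons; filled points passed an adjusted p of 0.05. The receptor chains lie near 0, with medians of 0.01, -0.17 and 0.18, and the interferon-stimulated genes have medians of 1.95, 1.58 and 0.26. The lists were chosen with earlier results of these data known.

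The receptor chains belong to the class II cytokine receptor family, whose other members bind IL-10, IL-20 or IL-22 or, for F3, clotting factor VII. Of 12 such receptors and ligands, 4 were tested. F3 rose over Parent (ratio 1.73, limma adjusted p = 2.81e-05), and IL20RA and IL20RB, the chains of a receptor for IL-20, were lower (ratios 0.65 and 0.607, limma adjusted p = 0.000459 and 0.00728). IL22RA1, which pairs with IL10RB to bind IL-22, had a ratio of 0.846 against Parent (limma adjusted p = 0.249) and was lower against NC-1 (0.683, 0.0218), as was IL20RA (0.743, 0.00278), while F3 was higher (1.21, 0.00405). Between NC-1 and Parent, F3 was higher and IL20RB lower (ratios 1.43 and 0.589, limma adjusted p = 0.00105 and 0.0114). The median of the 4 was -0.34 against Parent, -0.18 against NC-1 and 0.03 for NC-1 against Parent.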

How the data were processed

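RNA-seq of 6 BxPC-3 libraries was used, in the groups Parent, NC-1 and miR-4711-5p given by the sample titles. The authors prepared stranded mRNA libraries, sequenced single ends and mapped the reads to hg19. The deposited FPKM values, 1 per gene symbol, were made by the authors with Cufflinks tools (Cuffnorm by the paper). The submitters' processing notes give TopHat2 2.1.1, Bowtie2 2.3.5.1, SAMtools 1.2 and Cufflinks 2.2.1, and the paper gives other versions of the first 3. The annotation, the strand option and the normalization of Cuffnorm are not given in the sources used here.

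FPKM are not counts, so log2(FPKM + 1) of genes whose mean reached 1 FPKM was tested with limma 3.58.1 in R 4.3.3 (trend, two-sided, 3 groups in 1 fit, 3 residual degrees of freedom, a prior of 4.15), with Benjamini-Hochberg adjustment over 12040 genes. The 2 comparisons with NC-1 and the 2 with Parent share those libraries. Ratios are of mean FPKM without a pseudocount. The worth of 1 read in each library was taken from the commonest ratio of values under 0.1 FPKM to Parent 1. A step was read as 1 read because, over 501 genes with 1 transcript, step times transcript length had a median of 67.2 (quartiles 63.5 to 74.9), and was 79.0 for IFNB1 and 71.2 for IFNL1. Intervals cover counting error only.

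All 10 members are named. Of each list, genes singled out by a count of 5 or fewer are named, with up to 4 others that had the largest change against Parent among those called, and for likeness the 2 genes with the highest Pearson r. IL10RB-AS1 and the per-library values of TMEM50B were chosen after values were seen, and some genes that the rule names are not reported here. The members and lists were chosen with earlier results of these data known. Replicate numbers did not pair the libraries (correlation of deviations 0.00301, -0.00892 and 0.061). Alternatives were other pseudocounts, filters and scaling, 2 groups in the fit, a replicate block, a ratio of 1.5 and leaving out each library. The limma and step calculations were tested on simulated data. IFNB1, above 0 in only 2 libraries, had too few such values to be covered by the step test or by the 501 genes. Python 3.11.15, numpy 2.4.6, pandas 2.3.3, scipy 1.17.1 and matplotlib 3.10.9 were used.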

Additional observations from a re-analysis of the deposited data

How the results depend on the processing

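The number of members called moved most with the filter on low values and with a minimum ratio. With no filter it was 0 for miR-4711-5p against Parent (1 in the fit reported), 1 against NC-1 (3) and 1 for NC-1 against Parent (3). That fit also took in 7097 symbols listed at 0 in all libraries, which show no spread and enter the shared estimate of it. With a mean of at least 0.1 FPKM it was 3 against Parent, the ligand IFNB1 and the chains IFNGR1 and IFNLR1, after IFNB1, IFNL1 and IFNLR1 had entered the genes tested. IFNB1 passed this filter through its miR-4711-5p libraries alone, so its call is no independent support. The share of all genes called with this filter is not given here. A ratio of at least 1.5 left 0 in each of the 3 comparisons. Leaving out 1 library at a time, where a lone library was assumed to vary like the other groups, the number was 1 throughout for miR-4711-5p against Parent, and 1 to 2 both against NC-1 and for NC-1 against Parent. With the replicate block it was 1, 2 and 2, and IL10RB alone lost its calls. The libraries share only a number, so this is not read as a weaker effect. IL10RB against Parent, which had passed no threshold, ranged from -0.0244 without Parent 2 to 0.0392 without Parent 1, and was also below 0, at -0.0219, without miR-4711-5p 1. Of all other recomputed values, 177 kept their direction and side of the threshold and 35 kept their direction and lost the threshold. Depth limits IFNB1 and IFNL1, at 8 reads or fewer per library, and reads were not recovered for IFNL2.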
